A study of Mus musculus with 20 samples.

Results

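The genes described here are 10 genes of the extracellular matrix, chosen by name: Fbln1, Col1a1, Col1a2, Col3a1, Col4a1, Col6a1, Sparc, Dcn, Lum and Fn1. Of these, 8 were among the 12710 genes tested on 20 mouse Illumina arrays, and Col3a1 and Lum were under background on all of them. Their symbols were carried by 26 of the 46089 probes on the array. For each gene the probe with the highest mean over the 20 arrays was used. Fbln1 entered the list because an earlier look at these data had found it higher in leukaemia than in thymus grafts, so that difference is given below as a description, without a test, for all 10 genes. The question put to them was whether Fbln1 followed the fibroblast matrix genes or the lymphoid cells.

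RNA came from cells of mice in vivo, either single cell suspensions or sorted cells. The 7 arrays of T cell acute lymphoblastic leukaemia (T-ALL) and the 3 arrays called T-ALL_Rag- (the meaning of Rag- is not explained) were labelled as re-analyses and came from F1(WB x B6/Ly5.1) mice. The 4 arrays of thymus grafts, named autonomous thymus, were taken at 10 weeks and carried the same F1(WB x B6/Ly5.1) background. The 2 host spleen arrays held total splenocytes of WB mice, and the 2 wild-type thymus and 2 wild-type spleen arrays held total thymocytes or splenocytes of C57BL/6 mice. The sources used here do not give ages, how many mice lie behind an array, or the sort. The p-values therefore speak of the variation among arrays, some of which may be technical.

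Collagens are built from chains wound into a helix. Type I and type III collagens form the fibrils of connective tissue and are made mainly by fibroblasts, type IV collagen forms the sheet of basement membranes around vessels and epithelia, and type VI collagen forms beaded filaments between them. Sparc and fibronectin bind cells and collagen, the small proteoglycans decorin and lumican coat collagen fibrils, and fibulin-1 is a secreted calcium-binding glycoprotein that associates with basement membranes, fibronectin and elastic fibres. In a thymus these products come chiefly from the capsule, septa and vessels, not from thymocytes.

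Values are log2 intensities, normalized by the authors to 1 common distribution with a median of 6.95 on each array, and a probe was counted as above background over 7.12, which is 3 SD over the mode of the background. By their content, several arrays went against their labels. The arrays labelled host spleen had high double-positive thymocyte genes (list means 11.80 and 11.62) and wild-type thymus 1 had the lowest T cell receptor list (8.67) with a granulocyte list of 14.29. Wild-type spleen 3 had a double-positive list of 10.72, against 9.00 on wild-type spleen 1. Thymus graft 3 stood apart from the other 3 grafts in Fbln1, in the matrix genes and in T cell receptor genes. Groups were kept as labelled, so each comparison with these arrays is between arrays carrying those labels. In whole cell preparations such as these, fewer cells of a type and less RNA per cell cannot be told apart.

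Promoters were read for Fbln1, whose pattern differed from the others, and for the pair most alike, Sparc and Col4a1, because these are the members the results turn on. Of the 10 genes, 6 had a promoter in the RefSeq table (GRCm38.p6), which runs from 250 bases before to 50 bases after a start. Fbln1 has 2 listed starts 59 bases apart, and the second is shown. Each sequence is 5′ to 3′ on the gene's own strand, and capitals mark the GC box GGGCGG, read on both strands.

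Fbln1, chr15:85205758-85206057, plus strand: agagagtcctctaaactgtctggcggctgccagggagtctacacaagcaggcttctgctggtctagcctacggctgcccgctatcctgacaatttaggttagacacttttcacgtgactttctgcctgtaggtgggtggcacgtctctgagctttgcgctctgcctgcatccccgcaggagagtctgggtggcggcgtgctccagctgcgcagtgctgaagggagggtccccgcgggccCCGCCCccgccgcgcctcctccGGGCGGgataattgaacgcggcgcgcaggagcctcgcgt

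Sparc, chr11:55420031-55420330, minus strand: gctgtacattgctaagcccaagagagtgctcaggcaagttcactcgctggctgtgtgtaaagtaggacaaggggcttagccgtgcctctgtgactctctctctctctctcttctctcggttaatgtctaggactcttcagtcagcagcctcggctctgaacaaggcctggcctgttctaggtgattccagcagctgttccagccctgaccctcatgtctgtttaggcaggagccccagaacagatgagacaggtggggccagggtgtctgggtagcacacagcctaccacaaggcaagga

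Col4a1, chr8:11312777-11313076, minus strand: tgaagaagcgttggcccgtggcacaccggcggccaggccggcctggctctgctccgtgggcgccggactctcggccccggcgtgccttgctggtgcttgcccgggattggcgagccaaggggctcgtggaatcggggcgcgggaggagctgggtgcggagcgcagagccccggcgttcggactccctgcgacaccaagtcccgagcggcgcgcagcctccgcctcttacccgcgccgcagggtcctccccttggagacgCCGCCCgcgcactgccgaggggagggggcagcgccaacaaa

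The Fbln1 window shown was 64% G and C and held 2 GC boxes, and the window of its other start was 51.7% with 0. The Col4a1 window was 74% G and C with 1 GC box, and the Sparc window was 55.3% with 0. The median over all promoters of the table was 52.7%, and 35.7% of the 32851 promoters held a GC box. The TATA box TATAAA, present in 13.6% of promoters, and the AP-1 sequence TGANTCA, present in 7.81%, were in none of the 3 printed windows on either strand, and the sequence CCAAT, present in 37.4%, was in that of Col4a1. Sparc and Col4a1 thus shared none of the 4 motifs searched, which says only that these letters are not in both windows.

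Fbln1 was high on all T-ALL arrays and on some arrays of most other labels. Its levels on T-ALL 1 to 7 were 11.33, 11.99, 11.59, 12.21, 12.10, 12.18 and 11.79. On T-ALL Rag- 8, 9 and 10 they were 10.97, 9.34 and 11.71. Thymus grafts 1 to 4 had 8.12, 8.18, 10.89 and 7.81, so that graft 3 lay near the leukaemias and the other 3 far below them. Host spleens 4 and 5 had 8.01 and 8.21. Wild-type thymus 1 and 3 had 8.56 and 11.53, and wild-type spleen 1 and 3 had 8.92 and 11.60. Within either wild-type label, replicate 3 was thus high and replicate 1 low.

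The 20 Fbln1 values fell in 2 ranges with nothing between, 8 arrays from 7.81 to 9.34 and 12 arrays from 10.89 to 12.21. By label mean the order was T-ALL (11.88 ± 0.33, SD, n = 7), T-ALL Rag- (10.67 ± 1.21, n = 3), wild-type spleen (10.26 ± 1.90, n = 2), wild-type thymus (10.04 ± 2.10, n = 2), thymus graft (8.75 ± 1.44, n = 4) and host spleen (8.11 ± 0.14, n = 2). The arrays of each neighbouring pair in that order overlapped. T-ALL was 3.13 higher than thymus grafts on the log2 scale, 8.78-fold, and the arrays of these labels did not overlap, which was also true of 2.34% of all genes. The rule used this difference, so nothing is read from it. The T-ALL minus graft value was 3.49 on chip 1, which held T-ALL 1 to 3 and grafts 1 and 2, and 2.81 on chip 2, with T-ALL 4 to 6 and grafts 3 and 4. Without graft 3 it was 3.85.

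**Figure D1:**
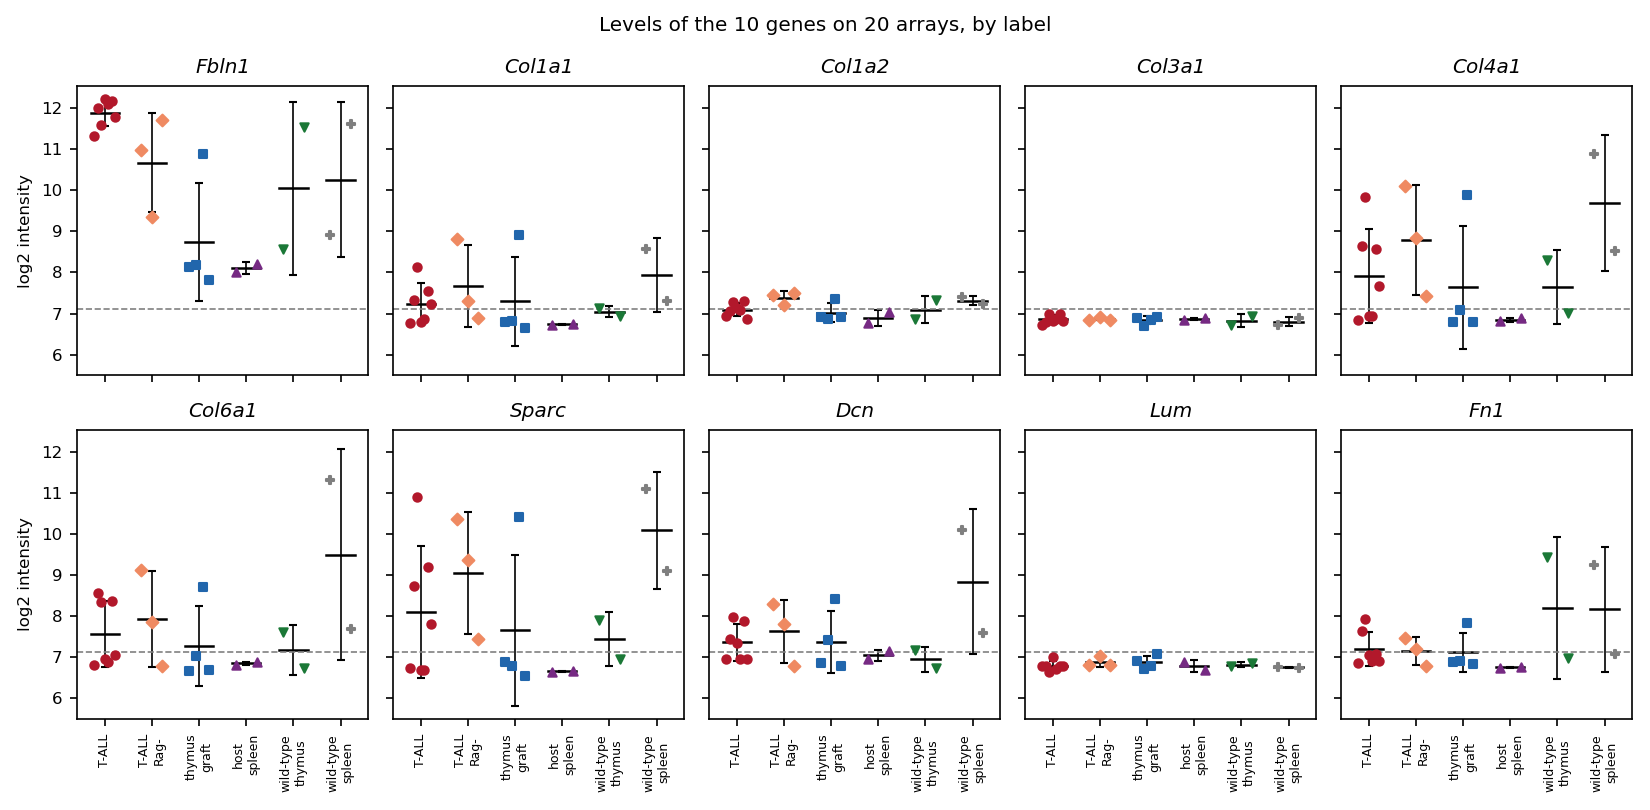
Log2 intensity of each of the 10 genes (vertical axis) on 20 arrays grouped by label (horizontal axis). Points are arrays, black bars the label mean with its SD, and the dashed line the background threshold of 7.12. All T-ALL points of Fbln1 lie at 11.33 or above, whereas Col3a1 and Lum stay under the line on all 20 arrays.

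The 5 Fbln1 probes gave the same direction in sizes that followed their brightness. T-ALL minus graft was 3.13, 3.11, 1.79, 1.12 and 0.46 from the brightest to the dimmest probe. The first 2 probes were above background on 20 arrays each, and the others on 13, 12 and 11. Over the arrays the 4 dimmer probes correlated with the brightest one at r = 0.97, 0.96, 0.85 and 0.81 (n = 20, a description of probes that share their arrays and RNA).

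**Figure D2:**
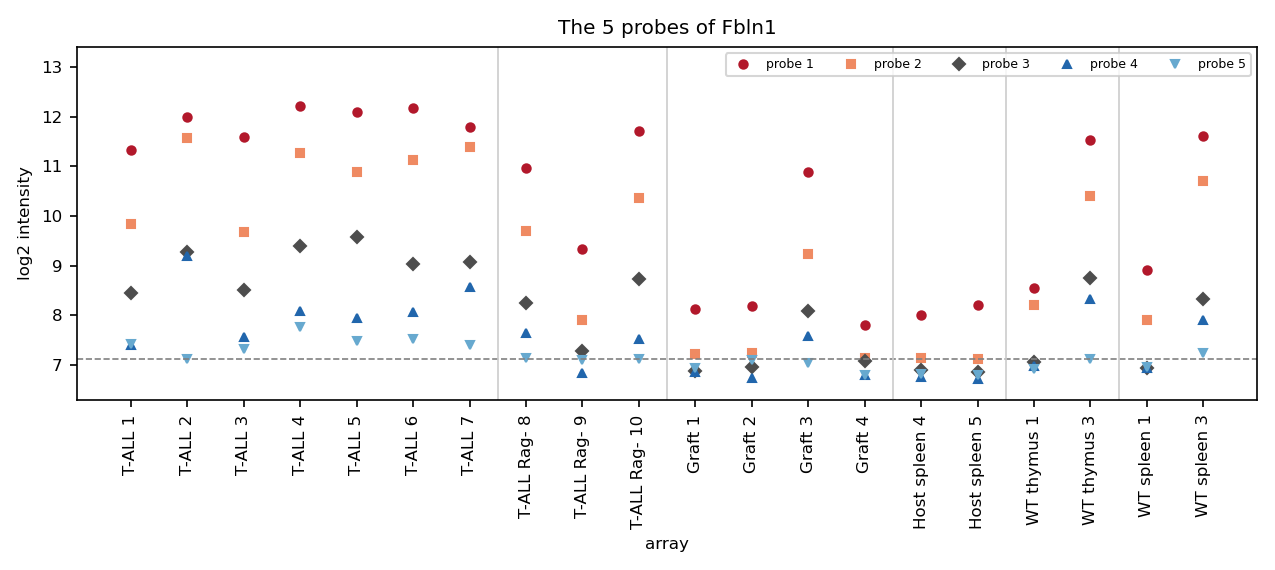
Log2 intensity (vertical axis) of the 5 Fbln1 probes, numbered from the brightest, on each array (horizontal axis), with the background threshold of 7.12 as a dashed line. Probes 1 and 2 are high on T-ALL, on Rag- 8 and 10, graft 3, wild-type thymus 3 and wild-type spleen 3, and low on the other arrays.

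The fibrillar collagens among the 10 genes were near background in most samples. Col1a1, the main chain of type I collagen, was above background on 10 of 20 arrays. Its T-ALL levels ran from 6.78 to 8.14 with a median of 7.23, and T-ALL Rag- 8, 9 and 10 had 8.81, 7.30 and 6.90. Grafts 1 to 4 had 6.80, 6.82, 8.92 and 6.64. The highest Col1a1 arrays were thus graft 3, Rag- 8 and wild-type spleen 1 (8.57), and no label was high as a whole. Col1a2, the other type I chain, was also above background on 10 arrays but stayed between 6.76 and 7.50. Col3a1, the type III chain, had 1 probe pair, and its brighter probe ran from 6.69 to 7.00, under the threshold on all 20 arrays, so no difference in it can be read here.

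Col4a1, a chain of the basement membrane collagen, was above background on 11 arrays and spread much further. It ran from 6.84 to 9.83 with a median of 7.67 on T-ALL. It was 10.11, 8.83 and 7.43 on T-ALL Rag- 8, 9 and 10, and 6.80, 7.08, 9.88 and 6.80 on grafts 1 to 4. Graft 3 alone among the grafts, and T-ALL 3 most among the T-ALL arrays, had high Col4a1. Wild-type spleen 1 had the highest level, 10.87, and the host spleens had 6.81 and 6.88. Col6a1, a type VI chain, was above background on 9 arrays, from 6.67 on graft 1 to 11.31 on wild-type spleen 1. Its T-ALL levels ran from 6.81 to 8.57 with a median of 7.05.

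Sparc, which binds collagen and modulates cell contact with matrix, behaved like Col4a1. On T-ALL 1 to 7 it was 6.74, 8.73, 10.90, 6.68, 6.68, 9.19 and 7.81. On T-ALL Rag- 8, 9 and 10 it was 10.36, 9.37 and 7.44. On grafts 1 to 4 it was 6.89, 6.78, 10.41 and 6.54. T-ALL 1, 4 and 5 lay with grafts 1, 2 and 4 under the threshold, while T-ALL 3 and graft 3 were high, so these 2 labels overlapped over most of the range. Host spleens 4 and 5 had 6.64 and 6.67, against 11.10 and 9.09 on wild-type spleen 1 and 3.

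Dcn, decorin, was above background on 12 arrays. It ran from 6.95 to 7.98 on T-ALL with a median of 7.36, and was highest on wild-type spleen 1 (10.09), graft 3 (8.43) and Rag- 8 (8.29). Lum, lumican, stayed between 6.65 and 7.09 on all arrays and under the threshold throughout. Fn1, fibronectin, had a pattern of its own. By its brightest probe it was above background on 7 arrays and highest at 9.43 (wild-type thymus, replicate 1) and 9.24 (replicate 1 of wild-type spleen), and ran from 6.86 to 7.92 on T-ALL. Its next probe was above background on 17 arrays but ran only from 7.00 to 7.52. The 2 arrays high by the brightest probe had the highest macrophage lists, 13.17 and 12.33, and granulocyte lists of 14.29 and 14.34, whose part in the Fn1 level was not tested.

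**Figure D3:**
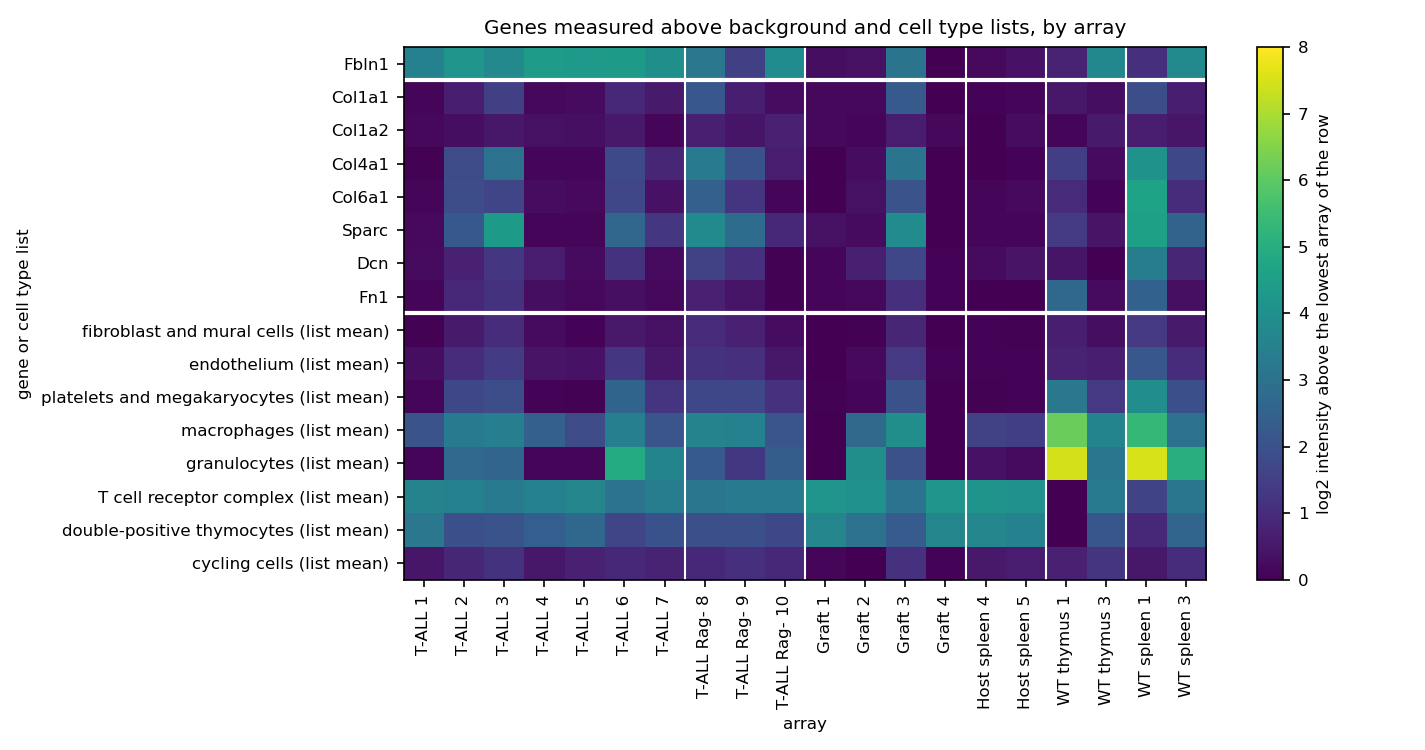
The 8 genes above background on at least 2 arrays and 8 cell type lists (rows) on 20 arrays (columns), with the colour giving log2 intensity above the lowest array of the same row. The Col4a1, Col6a1 and Sparc rows rise together on T-ALL 2, 3 and 6, Rag- 8 and 9, graft 3 and wild-type spleen 1 and 3, and less on wild-type thymus 1. Col1a1 and Dcn rise only a little on T-ALL 2, to 7.32 and 7.45, and Col1a2 stays between 6.76 and 7.50 throughout. The Fbln1 row is high on T-ALL 1, 4 and 5 and wild-type thymus 3, where the Col4a1, Col6a1 and Sparc rows are low, and low on wild-type spleen 1.

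Of the 7 matrix genes other than Fbln1 that were above background on any array, T-ALL 3, Rag- 8, Rag- 9, graft 3 and wild-type spleen 1 had 7 above it. T-ALL 1, T-ALL 5, grafts 1 and 4 and host spleen 4 had 0 by the brightest probe of each gene, and by any probe 1 gene, Fn1, except graft 1 with 0. Col1a1, Col4a1, Col6a1, Sparc and Dcn moved together over the 20 arrays, with r from 0.83 to 0.98 over their 10 pairs, and Sparc and Col4a1 were the closest pair. These genes also moved with lists of fibroblast and mural cell, endothelial, and platelet and megakaryocyte genes, and with other lists of matrix genes. Sparc, for example, had r = 0.92 with 8 collagens that are no members and r = 0.93 with 9 basement membrane genes, and its r was 0.96 with the fibroblast and mural list, 0.94 with the endothelial list and 0.80 with the platelet list. With the erythroid and macrophage lists r was lower, at 0.71 and 0.64 for Sparc and 0.71 and 0.70 for Col4a1. The erythroid list was 10.08, 10.24 and 10.14 on T-ALL 1, 4 and 5, where Sparc was low, and 12.64 to 13.92 on the other T-ALL arrays. The endothelial list was 8.63 on graft 3 and 7.30 to 7.51 on the other grafts, and the platelet list 8.84 on graft 3 and 6.86 to 6.98 on the others. Which of these cells the matrix levels come with was not tested. The fibroblast and mural list averaged 7.39 ± 0.34 on T-ALL (7.04 to 8.00) and 7.21 ± 0.43 on grafts (6.98 to 7.85). All 14 of its measured genes were above background on some T-ALL array and 13 on some graft, with Fap under the threshold on each graft. The points of these correlations share arrays and normalization, so they are given as descriptions.

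Fbln1 did not follow the matrix genes over the whole set. T-ALL 4 and 5 had 2 of the highest Fbln1 levels, 12.21 and 12.10, with 2 and 0 of the 7 matrix genes above background by their brightest probes, and T-ALL 1 had 11.33 with 0. Wild-type spleen 1 had all 7 above background and the highest mean of the 7 (9.80), with Fbln1 at 8.92. Over 20 arrays r was 0.23 with Sparc, 0.17 with Col4a1, 0.21 with Col1a1, 0.07 with Col6a1, 0.50 with Col1a2 and 0.14 with the mean of the 7. It was -0.00 with Dcn and -0.13 with Fn1. With the fibroblast and mural list r was 0.21 over 20 arrays, 0.34 without the 6 wild-type and host arrays and -0.07 within T-ALL. For Sparc r was 0.27 without the 6 wild-type and host arrays, and -0.13 within T-ALL. Because Fbln1 lies in 2 separate ranges, these pooled values describe the arrays and carry no test. The values without the 6 arrays also rest on the contrast that chose Fbln1.

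Within the lower range (n = 8), Spearman's rho was 0.88 with Sparc, 0.91 with Col4a1, 0.90 with Col1a1, 0.88 with Col6a1, 0.88 with Dcn, 0.71 with Fn1 and 0.60 with Col1a2. For cell type lists it was 0.88 with the platelet list, 0.88 with the endothelial list and 0.81 with the erythroid list. The fibroblast and mural list had 0.76, the macrophage list 0.74 and the granulocyte list 0.71, and the remaining lists were lower. Within the upper range (n = 12) r with Sparc was -0.49 and rho -0.46, and r was -0.07 without the 2 farthest arrays. The ranges were drawn by the Fbln1 level itself and mix labels, and Sparc was under the background threshold on 5 of the 8 lower arrays, so these values carry no test. Within T-ALL (n = 7) r with Sparc was -0.13 and rho -0.32 (exact permutation tests, adjusted p = 0.985 and 1), and the 7 matrix genes gave r between -0.13 and 0.40.

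Fbln1 did not follow the T cell genes over the whole set either. The list of the T cell receptor complex was highest on grafts 1, 2 and 4 (12.84, 12.72 and 12.88) and host spleens 4 and 5 (12.82 and 12.71), the arrays with the lowest Fbln1. It ran from 11.73 to 12.31 on T-ALL. Over 20 arrays r was -0.01, and it was 0.38 after each label's mean was subtracted. Without the 6 wild-type and host arrays it was -0.72, so its sign rests on which arrays are counted. The arrays left then hold the T-ALL and graft contrast that chose Fbln1, so nothing is read from the -0.72. In the lower range rho was -0.88 and r was -0.50 (n = 8, no test). In the upper range they had the other sign, with rho 0.37 and r 0.47 (n = 12, no test). Within T-ALL r was -0.16 and rho -0.04 (exact permutation tests, n = 7, adjusted p = 0.985 and 1). The list of double-positive thymocyte genes gave r = -0.29 over 20 arrays and 0.21 after label means were subtracted. Without the wild-type and host arrays its r was -0.70, a value from which again nothing is read.

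Of the cell type lists, genes of cycling cells had the highest r with Fbln1 over 20 arrays, 0.63, and 0.68 after label means were subtracted, with 0.00 within T-ALL. Within T-ALL the B cell list was the one relation to pass for r, at 0.93 (exact permutation test, n = 7, adjusted p = 0.0397 over 20 relations), with rho 0.96 (adjusted p = 0.0556, exact permutation) and r = 0.89 without the 2 farthest arrays. The relation lies mostly with 1 of the 8 genes of the list, Blk, a Src-family kinase, which was 7.13, 10.41, 7.19, 9.71, 10.66, 9.72 and 9.14 on T-ALL 1 to 7. By itself Blk had r = 0.88, and the list without it r = 0.60, running from 7.03 to 7.34, close to background. Over 20 arrays the r of the whole list was -0.14.

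**Figure D4:**
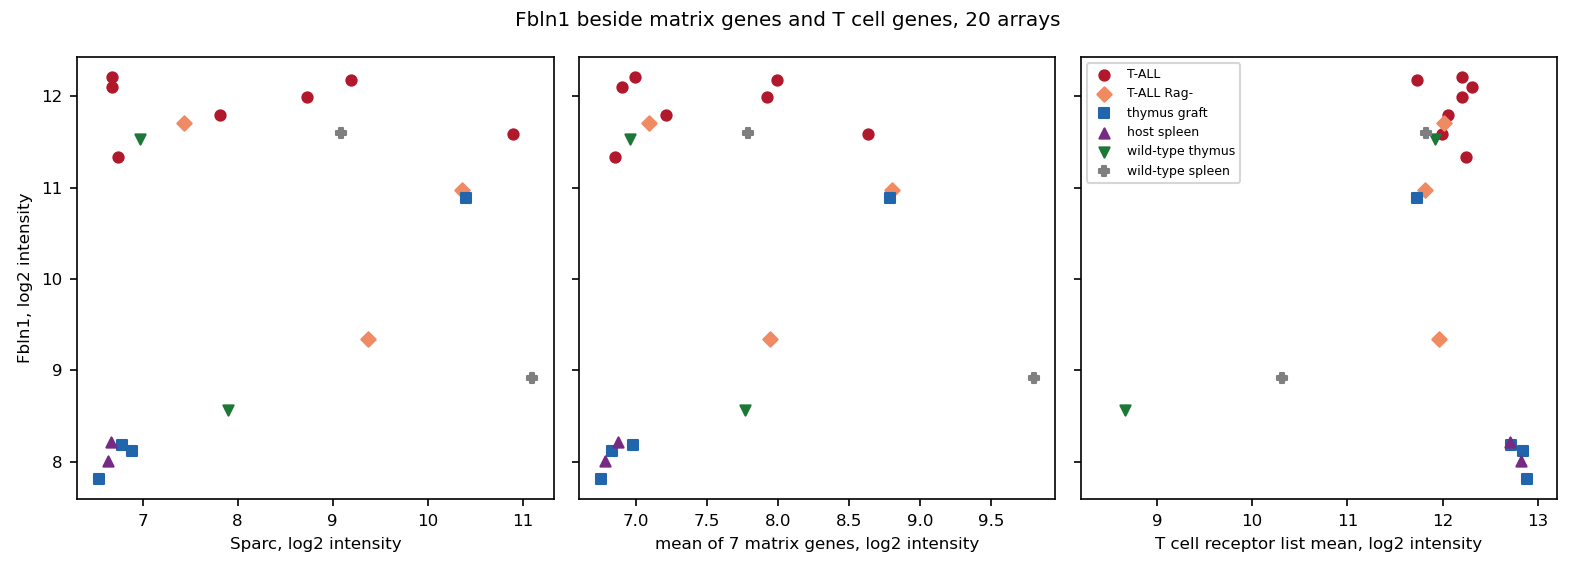
Fbln1 (vertical axis, log2 intensity) against Sparc, the mean of the 7 other measured matrix genes and the T cell receptor list mean (horizontal axes, log2 intensity) on 20 arrays marked by label. T-ALL points stay between 11.33 and 12.21 across the whole Sparc range, and the arrays with the highest T cell receptor list lie at the bottom.

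The genes whose pattern was most like Fbln1 were not matrix genes. By r over the 20 arrays, among all genes tested, they were Nup43 (0.94), a nuclear pore protein, Rpa2 (0.94), which binds single-stranded DNA in replication, Tmem106c (0.93), Mrpl13 (0.93), a mitochondrial ribosomal protein, and Tedc1 (0.93). By deviations from label means they were Mrpl13 (0.96), Pycrl (0.94), Nup43 (0.93), Phf5a (0.93), a splicing factor subunit, and Rpl30 (0.92), a ribosomal protein. Mrpl13 averaged 12.67 ± 0.16 on T-ALL and 11.85 ± 0.53 on grafts, and Nup43 averaged 10.74 ± 0.16 and 9.76 ± 0.61 on the same labels.

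Fbln1 lies on chromosome 15, and so do Tmem106c, Mrpl13, Pycrl, Phf5a and Rpl30, which was noticed after these values had been seen. Of the 25 genes most like Fbln1 over 20 arrays 12 lie on chromosome 15, and of the first 100 it was 39, whereas 4.04% of all genes tested lie there. The median shift of 292 chromosome 15 genes, those above background on all arrays with Fbln1 left out, was taken on each array against each gene's mean over arrays. It was 0.12, 0.33, 0.07, 0.33, 0.09, 0.18 and 0.15 on T-ALL 1 to 7. It was 0.08, -0.28 and 0.10 on Rag- 8, 9 and 10, and -0.16, -0.14, 0.09 and -0.17 on grafts 1 to 4. The host spleens had -0.16 and -0.17, the wild-type thymus arrays -0.22 and 0.05 and the wild-type spleens -0.24 and 0.00. All 12 arrays in the upper Fbln1 range thus had shifts from 0.00 to 0.33 and the 8 in the lower range from -0.28 to -0.14. Chromosome 15 did not have the largest shift on each array. The other autosomes ran from -0.16 to 0.29 on wild-type spleen 3 and from -0.04 to 0.22 on graft 3. On the arrays other than wild-type spleen 3, 1 of 342 shifts of the other autosomes was beyond 0.15 in size.

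Over 20 arrays the shift and Fbln1 had r = 0.88 and rho = 0.79, as a description that follows the same 2 ranges. The r was 0.90 without the 2 farthest arrays, 0.90 among the 6 wild-type and host arrays and 0.52 within T-ALL. Without those 6 it was 0.87, over arrays that hold the contrast that chose Fbln1. The other 19 chromosomes gave r between -0.45 and 0.25 over 20 arrays. For deviations from label means chromosome 15 had 0.85 and the others ran from -0.68 to 0.67. Within T-ALL the others ran from -0.62 to 0.75, so that chromosome 4, at 0.75, was above chromosome 15 there. T-ALL minus graft had a median of 0.29 over the chromosome 15 genes, 76.7% of them higher in T-ALL, and medians from -0.04 to 0.02 on the other chromosomes. Chromosome 15 was looked at because its genes were like Fbln1, which this contrast chose, so these medians are a description. Fbln1 itself, at 3.13, had the largest T-ALL minus graft value of the 514 chromosome 15 genes tested. That rank was favoured in advance, because this contrast chose the gene, so nothing is read from it. The genes next to Fbln1 on either side in the annotation that were measured, Fam118a and Atxn10, differed by 0.25 and 0.56. DNA was not measured in these files, and the part of the chromosome-wide shift in the Fbln1 level was not tested.

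**Figure D5:**
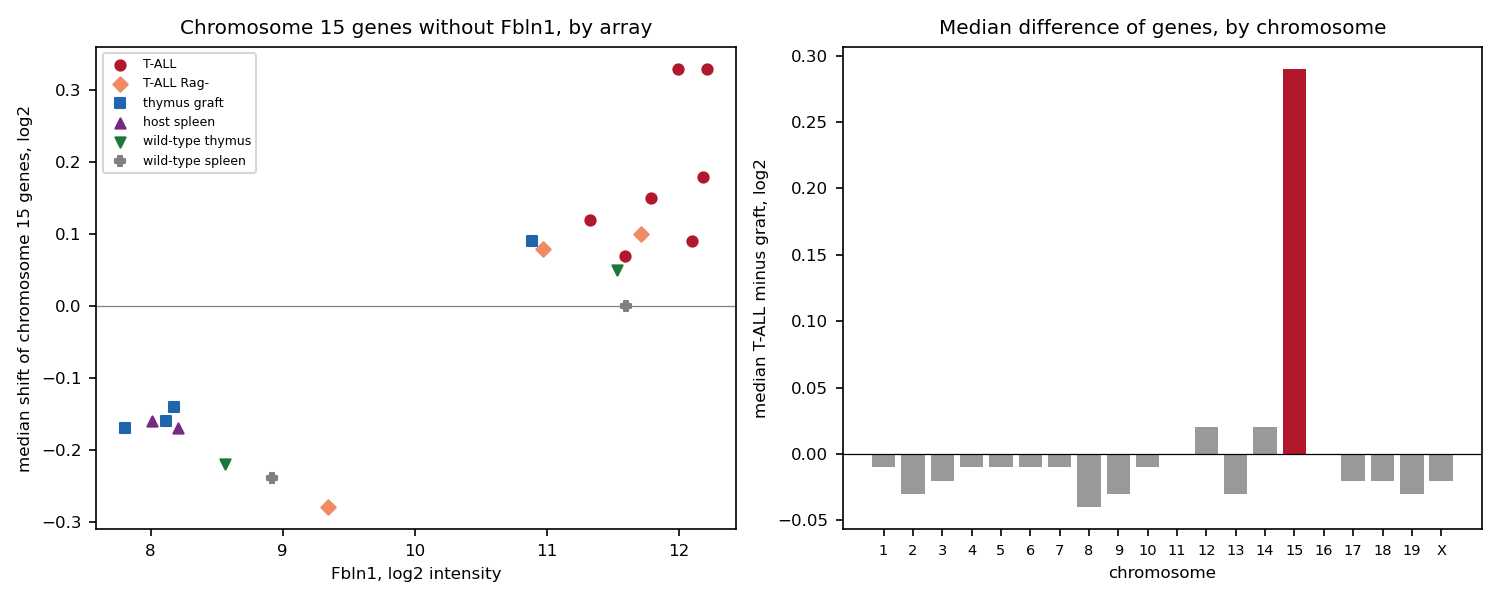
Left, the median log2 shift of 292 chromosome 15 genes without Fbln1 (vertical axis) against Fbln1 (horizontal axis, log2 intensity) on 20 arrays marked by label. Right, the median T-ALL minus graft log2 difference of genes on each chromosome, which was 0.29 on chromosome 15 and between -0.04 and 0.02 elsewhere. The contrast on the right chose Fbln1, so that panel is a description.

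For the other 7 measured genes the differences between T-ALL and grafts are given as values because the same contrast chose the list. T-ALL minus graft was 0.45 for Sparc, 0.29 for Col6a1, 0.28 for Col4a1, 0.08 for Col1a2, 0.08 for Fn1, -0.01 for Dcn and -0.05 for Col1a1, and the arrays of these 7 genes overlapped. Graft 3 carried the high values among grafts, and without it T-ALL lay above the grafts by 1.37 for Sparc, 1.02 for Col4a1, 0.77 for Col6a1, 0.49 for Col1a1, 0.34 for Dcn, 0.32 for Fn1 and 0.19 for Col1a2. Without T-ALL 3 the difference was -0.02 for Sparc and -0.04 for Col4a1. Within chip 1 Sparc differed by 1.96 and within chip 2 by -0.96. Of all genes 0.323% were called here by limma at an adjusted p below 0.05.

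T-ALL Rag- was set against T-ALL, with the T-ALL arrays shared by the previous contrast. The Rag- arrays were all on chip 3, where the only T-ALL array was T-ALL 7, so chip and label largely go together. Fbln1 averaged 10.67 ± 1.21 on T-ALL Rag- and 11.88 ± 0.33 on T-ALL, a difference of -1.21. High T-ALL levels helped to choose Fbln1, so its values are a description in this comparison as well. Array 9, at 9.34, lies outside the T-ALL range, and without it the difference was -0.54. Of the 8 measured genes 6 were higher and 2, Fbln1 among them, lower in Rag-, with a median of 0.33 beside 0.01 for all genes. Of all genes 47.5% were lower. Sparc differed by 0.95 (SE 0.955), Col4a1 by 0.87 (SE 0.781) and Col1a2 by 0.29 (SE 0.128). None of the genes other than Fbln1 passed, and 1 of them had an unadjusted p below 0.05. The background was 0% of genes called by limma (652 genes, 5.13%, had an unadjusted p below 0.05), and 2.05% with arrays that did not overlap, which held for 0 of the 8.

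T-ALL Rag- was also set against the thymus grafts, the arrays whose low Fbln1 helped to choose the gene, so its values are a description here too. The Rag- arrays were on chip 3 and the grafts on chips 1 and 2, so chip and label cannot be told apart. Fbln1 averaged 10.67 ± 1.21 on T-ALL Rag- and 8.75 ± 1.44 on grafts, a difference of 1.92 with overlapping arrays. All 8 genes, Fbln1 among them, had the higher mean on T-ALL Rag-, with a median of 0.52 beside 0.01 for all genes. Of all genes 47.6% had the lower mean there, and 5 of the 8 moved together, as given above. None of the 7 genes other than Fbln1 passed, against 0.0157% of all genes called by limma. Of all genes 16.3% had an unadjusted p below 0.05 and 12.8% had arrays that did not overlap. These values moved with graft 3. Without it the Fbln1 difference was 2.64, and the Col1a2 difference was 0.48 and passed (limma adjusted p = 0.0341), at a background of 8.84% of genes called.

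The same graft arrays were set against wild-type thymus, where strain and chip differ along with the label and cannot be told apart from it. Fbln1 averaged 8.75 ± 1.44 on grafts and 10.04 ± 2.10 on wild-type thymus, a difference of -1.29. Low graft levels helped to choose Fbln1, so its values are again a description. Without wild-type thymus 3 the difference was 0.19, without wild-type thymus 1 it was -2.78, and without graft 3 it was -2.01. Fn1 averaged 7.12 ± 0.48 on grafts and 8.21 ± 1.73 on wild-type thymus, a difference of -1.09 (adjusted p = 0.289). It was -2.31 without wild-type thymus 3, a value that rests on wild-type thymus 1 alone for that label. Of the 8 measured genes 4 were higher and 4 lower in grafts. Of those other than Fbln1, 0 passed and 0 had an unadjusted p below 0.05. Among all genes 0.0787% were called, 20.3% had an unadjusted p below 0.05 and 18.7% had arrays without overlap.

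Host spleen was set against wild-type spleen. All 8 genes had the lower mean on the host arrays, with a median of -1.97 beside -0.02 for all genes, and all 8 had arrays that did not overlap, as did 54.8% of all genes. Sparc averaged 6.65 ± 0.02 on host spleens and 10.09 ± 1.42 on wild-type spleens, at least 7.87-fold lower because the host arrays were at background (limma adjusted p = 0.151). Col4a1 averaged 6.84 ± 0.05 and 9.70 ± 1.65 on the same labels, at least 5.99-fold lower (adjusted p = 0.147). Fbln1 averaged 8.11 ± 0.14 and 10.26 ± 1.90, a difference of -2.15 (SE 1.03, limma adjusted p = 0.222), which was -0.81 without wild-type spleen 3 and -3.49 without wild-type spleen 1. None of the 8 passed, where 2.98% of all genes were called, and 6 had an unadjusted p below 0.05, as did 22.9% of all genes. Without wild-type spleen 3 the differences were -4.46 for Col6a1, -3.04 for Dcn and -2.48 for Fn1, which rest on wild-type spleen 1 alone for that label. The fibroblast and mural list averaged 7.04 ± 0.02 on host spleens and 7.93 ± 0.53 on wild-type spleens, with 8 of its 14 genes under the threshold on both host arrays, among them Pdgfra and Acta2. The granulocyte list differed more, at 7.14 ± 0.12 and 13.11 ± 1.74, and strain differed too (WB and C57BL/6), and their part was not tested.

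Other genes of the matrix were read from 8 lists with 93 entries, of which 68 were measured, and few passed. Against grafts T-ALL had 0 called higher and 1 lower, and T-ALL Rag- likewise 0 and 1, while T-ALL Rag- against T-ALL had 0 of 68. The share of the 68 was 1.47% in both comparisons with grafts, beside 0.323% and 0.0157% of all genes, and their median differences were 0.07 and 0.16 beside 0.01 for all genes. Both calls were Smoc1, a secreted calcium-binding glycoprotein of basement membranes and a relative of Sparc. On T-ALL 1 to 7 Smoc1 was 7.19, 6.92, 6.99, 7.98, 8.04, 6.98 and 7.08, and on T-ALL Rag- 8, 9 and 10 it was 7.23, 6.84 and 6.78. On grafts 1 to 4 it was 10.79, 9.30, 8.81 and 10.20, clear of both leukaemia labels. T-ALL minus graft was -2.46 on the log2 scale (SE 0.321, limma adjusted p = 0.00388), and the call held without each array in turn. T-ALL Rag- differed from grafts by -2.83 (adjusted p = 0.0087), a call lost without Rag- 9, Rag- 10 or graft 4 (adjusted p up to 0.0766) and with only the compared groups fitted (adjusted p = 0.117). Smoc1 was also higher on grafts than on wild-type thymus by 2.66 (adjusted p = 0.0297), a call lost without graft 1, graft 4 or wild-type thymus 1, after background subtraction and with only the compared groups fitted (adjusted p up to 0.435). It was higher on host spleens, 9.93 and 10.24, than on wild-type spleens, 6.84 and 7.37, by 2.98 (adjusted p = 0.011).

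On host spleens against wild-type spleens 2 of the 68 genes were called higher and 3 lower, 7.35% beside 2.98% of all genes. The mean was lower on host spleens for 56 of 68, 82.4% beside 52.8% of all genes, with a median of -0.75 beside -0.02. Those lower were Hspg2, the basement membrane proteoglycan perlecan (-2.94, adjusted p = 0.0236), Plod3, a collagen lysyl hydroxylase (-2.24, adjusted p = 0.0259), and Fbn1, fibrillin-1 (-0.73, adjusted p = 0.0461). Beside Smoc1 the one called higher was Itga4, an integrin chain that binds fibronectin (0.69, adjusted p = 0.0475). These 5 calls each fell away without host spleen 4, host spleen 5 or wild-type spleen 1, and with only the compared groups fitted. Those of Fbn1 and Itga4 also fell away with no intensity filter, after background subtraction and with chip as a random block.

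Fbln2, a fibulin related to Fbln1 and named because its probe was among the 2 brightest of its list, had another pattern. On T-ALL 1 to 7 it was 12.21, 7.19, 9.98, 11.19, 8.95, 9.36 and 10.43, and on grafts 1 to 4 it was 9.63, 10.31, 7.75 and 9.60. These labels overlapped (difference 0.58, SE 0.788, limma adjusted p = 0.767), and T-ALL 2, high in Fbln1, had the lowest Fbln2 of the 7. Bgn, biglycan, a small proteoglycan close to decorin, followed the matrix genes instead, with 7.21, 10.43, 11.25, 7.45, 7.17, 10.27 and 8.09 on T-ALL and 7.09, 7.58, 11.61 and 7.25 on grafts.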

How the data were processed

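The log2 intensities as deposited by the authors had been quantile normalized, as read from the values: sorted values differed by at most 0.01 between the 20 arrays. Which software made them is not given in the sources used here. RNA was extracted with RNAzol B and labelled as biotinylated cRNA, per the labels. A second deposited table had 20 columns that matched no label beyond doubt, and they were not used.

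Symbols came from the array annotation, brought up to date through a RefSeq gene table (GRCm38.p6): 35667 of 46089 probes had 1 symbol and 10422 none. A gene was tested when a probe exceeded 7.12 (mode 6.78 plus 3 SD of 0.113) on 2 or more arrays, and its brightest qualifying probe was taken. Label means were estimated over all 20 arrays by limma (version 3.58.1, R version 4.3.3) with an intensity trend (14 residual and 3.13 prior degrees of freedom), with Benjamini-Hochberg adjustment over 12710 genes and a threshold of 0.05. The layout was tested on simulated data. Correlations within T-ALL used exact permutation over 7 arrays. SE is that of the limma contrast, and a fold given as "at least" sets arrays of the dimmer label to the threshold where they lay under it.

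The members, the lists and the tests were chosen with earlier results of these data known. Named genes were the 10 members, called genes of the matrix lists (else the 2 brightest per list, of which some are given), and the 5 genes most like Fbln1 by each of 2 measures. Chromosome 15 was looked at after values had been seen. Alternatives covered the probe, filter, background subtraction, groups fitted, chip and each array left out. The number of arrays limits the precision.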

Additional observations from a re-analysis of the deposited data

Results flagged for a closer look

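Thymus graft 3 was the array that stood apart most often. Among the 4 grafts its gap to the nearest other graft took more of the range than Dixon's critical value allows for several of the genes. Graft 3 had Fbln1 at 10.89, with the other grafts between 7.81 and 8.18. It had Sparc at 10.41 (the others from 6.54 to 6.89), Col4a1 at 9.88 (6.80 to 7.08), Col1a1 at 8.92 (6.64 to 6.82), Fn1 at 7.84 (6.84 to 6.91) and Col1a2 at 7.36 (6.86 to 6.92). Its T cell receptor list mean was lower, at 11.73, than those of the other grafts (12.72 to 12.88), and its chromosome 15 shift was 0.09, with the others between -0.17 and -0.14. Among the 7 T-ALL arrays, T-ALL 4 had Lum at 7.01 with the others between 6.65 and 6.80, all of them under the background threshold. In all 24 groups of values were examined in this way and 9 gave an array that stood apart. Chance gives about 1 in 20. The 8 on graft 3 come from 1 array and are not independent.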

How the results depend on the processing

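No paired analysis was possible because replicate numbers of the labels mark separate arrays within a group, and the groups compared share no label that ties an array of one to an array of the other. The number of genes called over the whole table, to which the members were set, moved with the processing and with single arrays. T-ALL against grafts called 41 genes, and 26 with the mean of a gene's probes, 16 with no intensity filter, 24 with only the compared groups fitted, 17 and 10 with chip as a random or fixed block, and 2 to 1109 without 1 array. T-ALL Rag- against T-ALL called 0, with 22 under a fixed chip block and 0 to 1 without 1 array. T-ALL Rag- against grafts called 2, with 4 after background subtraction, 4 with only the compared groups, 605 with a random chip block and 1 to 1123 without 1 array. Grafts against wild-type thymus called 10, with 6 for the mean of probes, 3 after background subtraction, 2 with only the compared groups, 279 with a random chip block and 1 to 1437 without 1 array. Host against wild-type spleen called 379, with 212 with no filter, 7 with only the compared groups, 238 with a random chip block and 9 to 1542 without 1 array. The highest count came without graft 3 for T-ALL and T-ALL Rag- against grafts, without wild-type thymus 3 for grafts and without wild-type spleen 3 for host spleens. Grafts against wild-type thymus called 1104 without graft 3. The random chip block rests on a negative correlation within chips, -0.12.

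The Fbln1 difference between T-ALL and grafts was 1.92 with the mean of its probes and 1.79, 1.12 and 0.46 by its probes 3, 4 and 5, numbered by brightness. The Fbln1 difference between T-ALL Rag- and grafts ran from 1.41 to 2.64 without 1 array, and that between grafts and wild-type thymus from -2.78 to 0.19. For the 7 other genes in T-ALL against grafts, 19 of 136 values under alternatives had another sign than in the report, 0.49 or less in size: 7 for Dcn (0.04 to 0.34), 6 for Col1a1 (0.01 to 0.49), 3 for Fn1 (-0.06 to -0.01) and 1 each for Col4a1 (-0.04), Col6a1 (-0.04) and Sparc (-0.02). Col1a2 was 0.31 there after background subtraction. In the 4 other comparisons 36 of 404 values had another sign, 0.70 or less in size and none passing the test. Col1a2 passed it in T-ALL Rag- against grafts without graft 3, as given above, where the reported value did not. For these genes, fits that left 1 array in a label are read for size only. In T-ALL Rag- against T-ALL without 1 array, Col1a1 ran from -0.14 to 0.81, Col6a1 from -0.23 to 0.93, Dcn from -0.06 to 0.69 and Fn1 from -0.20 to 0.14. Dcn was -0.02 by probe 3, and Fn1 was 0.24 with a fixed chip block and 0.02, 0.03 and 0.03 by probes 2, 3 and 4. In T-ALL Rag- against grafts Col1a1 ran from -0.19 to 0.92, Dcn from -0.07 to 0.68 and Fn1 from -0.12 to 0.28, with Fn1 at -0.02 under a random chip block and -0.03 by probe 4. In grafts against wild-type thymus Col1a1 ran from -0.29 to 0.47, Col1a2 from -0.32 to 0.15, Col4a1 from -0.76 to 0.62, Col6a1 from -0.38 to 0.54, Fn1 from -2.31 to 0.13 and Sparc from -0.70 to 0.69. There Col6a1 was -0.05 by probe 3, Fn1 0.06 by probe 4 and Sparc -0.34 after background subtraction. In host against wild-type spleen, probes at background gave Col1a1 0.03, Col6a1 0.01 and Dcn 0.04. The r of Fbln1 with Sparc was -0.13 within T-ALL, and that with the T cell receptor list was -0.72 without the wild-type and host arrays and 0.38 for deviations from label means. The causes were not tested. Levels near the background threshold carry little information on differences, as for Col1a2, Col3a1 and Lum.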
